A study of Homo sapiens with 30 samples.

Results

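U87 is a human glioblastoma cell line, and the comparison described here is that of U87 cells after 3 days with interferon gamma (IFN-γ) against U87 cells without it. The members were chosen by the column names of the U87 expression table: 2 libraries of the D3 group (replicates 2 and 3) and 3 libraries of the Untreated group, which is 5 of the 30 libraries of the series. The table holds 2 columns under 1 name, which could not be assigned to a sample, and neither was used. All cells were wild type, were grown as cultures in DMEM with 10% fetal bovine serum, and differed by the cytokine alone according to the labels. The sample labels give the dose as 1 µL/mL whereas the treatment text gives 1 µg/mL, and the paper's methods give a lower concentration, so the dose is uncertain. The labels place the collection of Untreated cells at day 3 and the paper at the start of exposure. If the latter holds, time in culture and IFN-γ cannot be told apart. The replicates were separate cultures of 1 line, the paper states that the lines were not authenticated by STR typing, and p-values measure the spread between these cultures. Other groups served for values beside those of D3: U87 after 14 and 28 days with IFN-γ (D14 and D28), and the second glioblastoma line, U251, without IFN-γ and after 3 days with it. For a few genes, values of U251 after 14 and 28 days are given as well. The U87 cells kept without IFN-γ for 14 days after 14 days with it (D28WO) entered the filter and the estimate of the spread but are not described. The U87 libraries labelled D14 stood apart from both D3 and D28, with IDO1 listed at 0 in both of them. Whether that label is right was not tested, and it bears on each D14 value given here. The paper, in its own analysis of this series, describes a relative attenuation in U87 at day 14 and a reactivation by day 28.

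IFN-γ is the cytokine that T cells and natural killer cells release toward tumor cells. It binds the receptor chains IFNGR1 and IFNGR2, the kinases JAK1 and JAK2 phosphorylate transcription factors of the STAT family, and STAT dimers bind the gamma-activated sequence (GAS) in the promoters of target genes. One of the first targets is IRF1, a transcription factor that, with complexes that hold STAT2 and IRF9, acts through the interferon-stimulated response element (ISRE). In tumor cells the pathway is known for antigen presentation, for chemokines that attract T cells, and for inhibitors of T cells such as PD-L1 and the tryptophan-degrading enzyme IDO1.

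The deposited unit is TPM (transcript abundance scaled for transcript length and library size), although a supplementary sheet of the study calls it CPM. Among 8750 genes above 0 in 1 to 3 U87 libraries, the median lowest value was 1.83 in the shortest of 5 length classes and 0.0678 in the longest, as in a unit scaled for length, and the values were read as TPM. In TPM every library sums to the same total. The depth of each library is therefore unknown beyond the minimum that the paper's methods set, and a gene at 0 TPM is described as listed at 0. Levels are given in TPM, and differences as log2 fold changes on the scale log2(TPM + 1), which understates the change of genes near 0. A gene was called when the Benjamini-Hochberg adjusted p from limma was under 0.05 and the log2 fold change was over 1 in either direction. The D3 libraries listed 27367 and 28453 genes above 0 TPM, against 24223 to 25459 in the Untreated libraries. Of 508 olfactory receptor and keratin-associated protein genes, which are silent in most cells, 108 and 138 were above 0 at D3, against 71 to 77 without IFN-γ. Their summed level was 71.8 and 84.0 TPM at D3, against 27.8 to 46.5 TPM. The summed level of ribosomal protein genes was 30383 and 31989 TPM at D3 and 37061 to 42927 TPM in Untreated libraries. These values moved with the treatment group, and their part in the results was not tested. The intermediate filament gene VIM and the surface receptor gene CD44, both typical of mesenchymal glioma cells, were expressed in every U87 library. The astrocyte filament gene GFAP lay at 2.33 to 14.2 TPM over the 5 libraries. Of 20 neural stem and glial genes 14 passed the filter on low values. Of 14 markers of neurons, oligodendrocytes, endothelium and epithelium 13 passed it too, and 0 of them were called, so the markers do not single out 1 cell type. The leukocyte marker PTPRC lay between 0.0397 and 1.47 TPM, the microglial marker AIF1 was listed at 0 in all 5, and 3 of 12 leukocyte and microglia markers passed the filter on low values. One of those, NKG7, was listed at 0 in the Untreated libraries and at 1.32 and 0.970 TPM at D3, and was called higher (adjusted p = 0.0369), a call lost without any 1 of the 5 libraries (adjusted p from 0.0609 to 0.174).

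The promoters of 3 genes that rose are shown because they hold the letters through which the pathway is known to act. Each is the 250 bases before the start of the RefSeq transcript on GRCh38.p14, written 5′ to 3′ on the strand of the gene, with the matches to either motif in capitals. BST2 lies at chr19:17405631-17405880 on the minus strand, IFI27 at chr14:94110486-94110735 on the plus strand, and IRF1 at chr5:132490774-132491023 on the minus strand.
BST2: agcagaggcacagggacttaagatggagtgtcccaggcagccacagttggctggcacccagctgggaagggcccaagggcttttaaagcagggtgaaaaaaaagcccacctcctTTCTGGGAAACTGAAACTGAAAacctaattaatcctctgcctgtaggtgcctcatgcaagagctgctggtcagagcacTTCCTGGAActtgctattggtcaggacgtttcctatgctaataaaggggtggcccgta
IFI27: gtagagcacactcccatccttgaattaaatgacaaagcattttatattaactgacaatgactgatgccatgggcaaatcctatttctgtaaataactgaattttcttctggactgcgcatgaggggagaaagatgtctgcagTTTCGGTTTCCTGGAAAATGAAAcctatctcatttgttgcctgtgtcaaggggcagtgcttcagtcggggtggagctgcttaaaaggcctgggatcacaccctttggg
IRF1: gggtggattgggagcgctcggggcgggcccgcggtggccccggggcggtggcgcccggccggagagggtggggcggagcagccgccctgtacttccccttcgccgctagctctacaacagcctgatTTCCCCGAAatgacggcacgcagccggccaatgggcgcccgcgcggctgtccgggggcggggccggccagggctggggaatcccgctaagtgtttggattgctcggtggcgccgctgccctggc
The motifs searched were TTCNNNGAA for GAS and GAAANNGAAA for ISRE, on both strands, and matches of the 2 motifs may overlap. In BST2, GAS matches began 136 and 58 bases before the start and ISRE matches 130 and 124 bases before it. In IFI27, a GAS match began 101 bases before the start, between and over ISRE matches at 108 and 95 bases. IRF1 held a GAS match at 124 bases and no ISRE match. The windows of GBP4, RSAD2, BATF2 and SLAMF8, which also rose, held neither run of letters. Of 11573 tested protein-coding genes with a promoter entry, 665 (5.75%) held a GAS match, 296 (2.56%) an ISRE match and 30 (0.259%) both. Among the 549 of them called higher at D3, 46 (8.38%) held GAS, 43 (7.83%) ISRE and 9 (1.64%) both. Among the 111 called higher with a log2 fold change over 2, the shares were 15.3%, 17.1% and 6.31%. Of the 40 called lower, 8 (20%) held GAS and 0 held ISRE. These shares are descriptions of letters in a window, with no test.

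Far more genes rose than fell in U87 after 3 days. Of 22918 genes tested, 1340 (5.85%) were higher and 88 (0.384%) lower. The median log2 fold change over all tested genes was 0.20. It differed with level, from 0.44 among genes averaging 1 to 5 TPM to -0.135 among those above 100 TPM. The changes below are to be read against the median of genes of like level. With quantile normalization the median of all tested genes was -0.02 and the counts were 543 higher and 279 lower. Of these calls 66.1% were higher, against 93.8% in the main comparison. The adjusted p alone gave 2843 higher (12.4%) and 980 lower (4.28%). Both D3 libraries lay above all Untreated libraries for 7870 genes (34.3%) and below them for 2894 (12.6%). Without D3 replicate 2, 656 genes were higher and 49 lower. Of the higher genes, 752 were protein coding and 461 were long noncoding RNAs. The noncoding class had a median of 0.41 over its 6041 tested genes, against 0.13 over 14614 protein-coding genes. Among the higher genes 464 (34.6%) had an Untreated mean under 1 TPM and 116 (8.66%) were listed at 0 in all 3 Untreated libraries. A log2 fold change over 2 was reached by 276 higher genes and one over 3 by 82. Of the lower genes, 13 fell by more than 2 on the log2 scale.

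**Figure D1:**
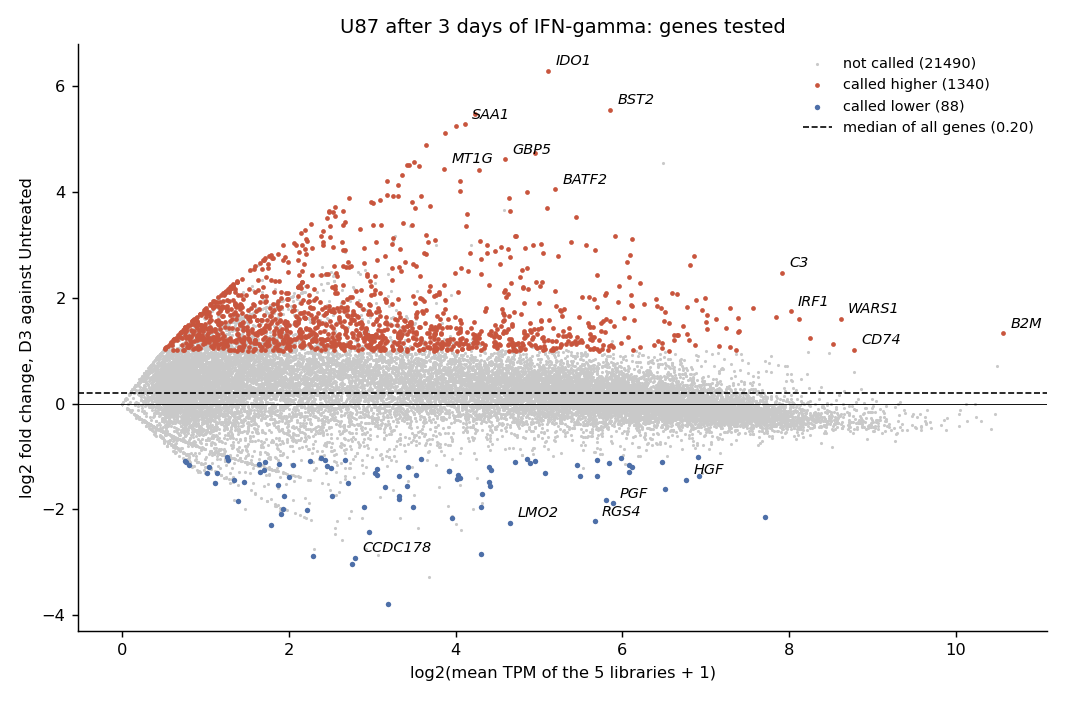
Log2 fold change of D3 against Untreated in U87 (vertical axis, on the log2(TPM + 1) scale) against the mean level over the 5 libraries (horizontal axis, log2(TPM + 1)), 1 point for each of 22918 tested genes, of which 1340 were called higher and 88 lower. The dashed line is the median of all genes, 0.20, and the called higher genes extend further from it than the called lower genes.

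Among protein-coding genes the largest rises were in genes that were low or nearly silent before exposure. IDO1, the enzyme that degrades tryptophan, was at 0.239, 0 and 0 TPM in the Untreated libraries and at 81.3 and 85.9 TPM at D3. Its log2 fold change was 6.30 ± 0.15 (SE, adjusted p = 6.83e-10). BST2, which tethers budding virus particles to the cell surface, had 1.90, 1.70 and 2.35 TPM without IFN-γ and 137 and 141 TPM at D3 (log2 fold change 5.56 ± 0.12, adjusted p = 2.74e-10). For both genes the lower D3 library was above every Untreated library by a wide margin. The acute-phase gene SAA1 was at 0, 0 and 0.225 TPM and then at 38.2 and 43.1 TPM (5.28 ± 0.26, adjusted p = 1.97e-07). Its neighbour SAA2 went from 0.411, 0 and 0 TPM to 18.2 and 21.6 TPM (4.21 ± 0.26, adjusted p = 1.26e-06), and since the pair are near-identical copies on chromosome 11 the split of reads between them is uncertain. IFI27, an interferon-stimulated gene of the mitochondrial membrane, was at 1.21, 3.60 and 0.880 TPM and at 56.5 and 88.3 TPM (4.74 ± 0.34, adjusted p = 3.19e-06). The D3 pair differed from each other more for IFI27 than for BST2. SLAMF8, a surface receptor known from myeloid cells, was at 0.789, 3.01 and 0.703 TPM and at 42.0 and 31.6 TPM (4.02 ± 0.35, adjusted p = 1.59e-05). Noncoding genes ranked among them: the long noncoding RNA gene LGALS17A and the 7SL RNA pseudogenes RN7SL181P, RN7SL693P and RN7SL608P were listed at 0 in the Untreated libraries and had fitted log2 fold changes of 5.48, 5.25, 5.12 and 4.90. The pseudogenes are near-identical copies, so their values are uncertain, and without D3 replicate 2 their adjusted p was 0.163, 0.168 and 0.0983.

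**Figure D2:**
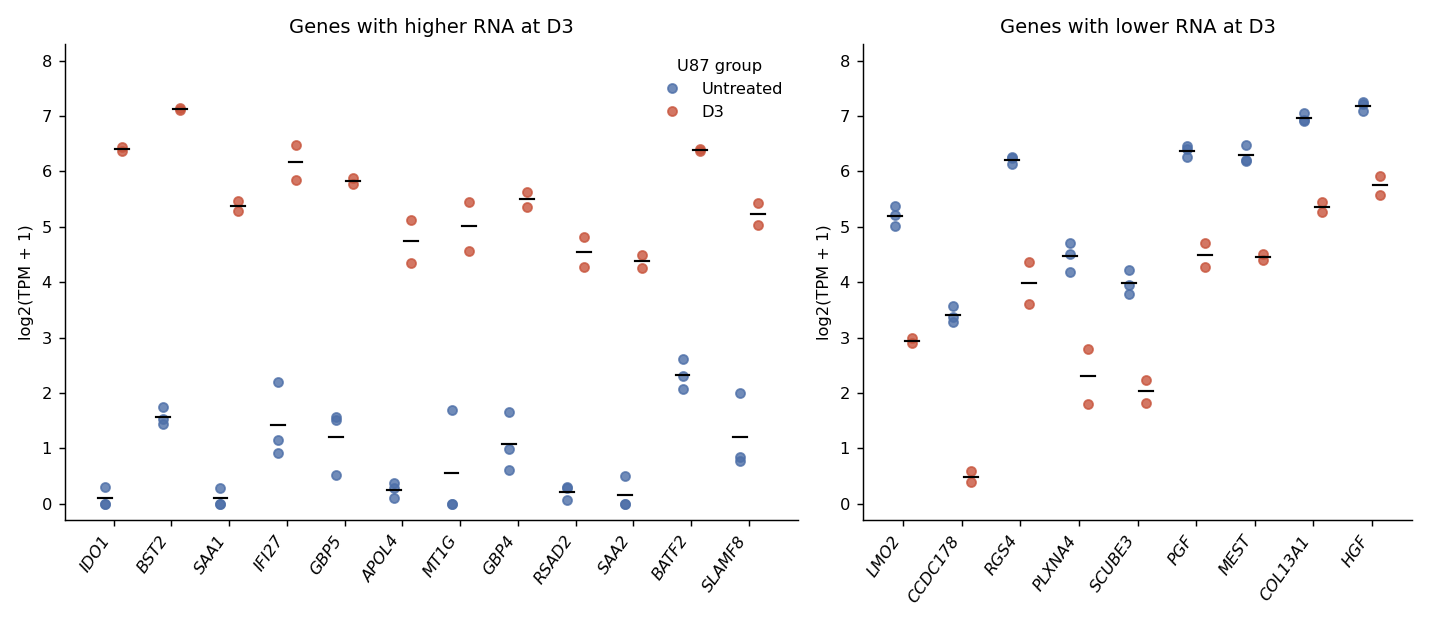
Level of 12 genes that rose and 9 that fell, as log2(TPM + 1), in the 3 Untreated and 2 D3 libraries of U87, with a dot for each library and a bar for the group mean. For IDO1 the Untreated dots lie at or near 0 and both D3 dots above 81 TPM. The genes were chosen among those whose groups do not overlap.

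Of the 9 tested genes of the receptor, JAK and STAT list, 3 were higher and 0 lower, with a median log2 fold change of 0.47. STAT2, a subunit of the ISRE-binding complex, rose from 42.0 ± 3.08 TPM (SD, n = 3) to 102 ± 4.23 TPM (n = 2; log2 fold change 1.26). The receptor chains were not called: IFNGR1 had means of 36.5 ± 4.57 and 45.4 ± 6.02 TPM, and IFNGR2 had 62.4 ± 3.08 and 45.7 ± 3.90 TPM (log2 fold change -0.44, adjusted p = 0.0295). The adjusted p of IFNGR2 was not under 0.05 when any 1 Untreated library was left out or in a fit of the compared groups alone. The kinase gene JAK2 was at 16.3, 22.8 and 14.7 TPM and at 30.0 and 33.1 TPM (0.80 ± 0.17, adjusted p = 0.0104), under the fold required. Its D3 libraries were above all Untreated libraries, as for 34.3% of all tested genes.

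Of the 7 tested IRF and BATF2 factors 5 rose (3 after quantile normalization), with a list median of 1.26. BATF2, a leucine-zipper factor that works with IRF1, rose most, from 3.94, 5.13 and 3.21 TPM to 83.9 and 81.6 TPM (4.06 ± 0.15, adjusted p = 2.99e-08). IRF1 itself started at 136, 130.1 and 134 TPM and stood at 445 and 450.1 TPM (1.74 ± 0.11, adjusted p = 1.05e-06). IRF7 rose from 13.2 ± 2.37 to 32.8 ± 0.0558 TPM and IRF5 from 2.64 ± 0.629 to 12.01 ± 4.83 TPM. IRF7 had a log2 fold change of 0.903 after quantile normalization, and IRF5 an adjusted p of 0.068 in a fit of the compared groups alone. IRF9 rose from 29.2 ± 5.76 to 65.7 ± 0.572 TPM (1.16), and its log2 fold change fell short of the fold required after quantile normalization (0.927) and after median-ratio scaling (0.978). Of the 10 negative regulators of JAK and STAT signalling, 0 were called by limma, 2 were higher by the adjusted p alone, and the median was 0.27. The 2 became 0 without D3 replicate 2 or in a fit of the compared groups alone, and 3 without Untreated replicate 2, and the median was 0.0345 after quantile normalization and 0.0841 after median-ratio scaling. SOCS1, which inhibits the JAK kinases, was at 19.8, 15.002 and 14.97 TPM and at 34.5 and 28.5 TPM (0.89 ± 0.16, adjusted p = 0.00414). Its log2 fold change was 1.02, and it was called, without Untreated replicate 1 or without D3 replicate 3. None of the 9 interferon ligand genes passed the filter on low values, and IFNG was listed at 0 in all 5 libraries.

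The guanylate-binding proteins, GTPases that attack membranes of intracellular microbes, had 6 of 9 tested genes of their list higher and 0 lower, with a median of 2.07. GBP5 went from 1.85, 1.97 and 0.441 TPM to 53.9 and 57.7 TPM (4.62 ± 0.27, adjusted p = 8.13e-07) and GBP4 from 2.15, 0.531 and 0.972 TPM to 40.1 and 48.6 TPM (4.41 ± 0.29, adjusted p = 2.06e-06). GBP1 reached the highest level of the family, 225 ± 21.9 TPM from 35.9 ± 4.19 TPM (2.61). The genes lie side by side on chromosome 1 (chr1:89006679-89272860, GRCh38, GENCODE 44), where 7 of 8 tested genes were higher. The apolipoprotein L genes, among which APOL1 is known as the serum factor that lyses trypanosomes, had 5 of 5 tested genes higher and a median of 2.90. APOL4 was at 0.294, 0.212 and 0.0707 TPM and at 19.4 and 33.8 TPM (4.49 ± 0.27, adjusted p = 1.02e-06). APOL1 was at 13.8, 10.96 and 9.72 TPM and at 99.2 and 97.2 TPM (3.00 ± 0.12, adjusted p = 7.51e-08). In the block from APOL3 to APOL1 (chr22:36140329-36267530) all 5 tested genes were higher.

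Of 50 antiviral interferon-stimulated genes 28 rose, 48 were higher by the adjusted p alone, and the median was 1.18. RSAD2, or viperin, which blocks viral RNA synthesis, went from 0.212, 0.236 and 0.0450 TPM to 27.3 and 18.4 TPM (4.33 ± 0.29, adjusted p = 2.05e-06). BST2 and IFI27 belong to the same list, as do OAS2, an activator of RNase L with a log2 fold change of 4.0, and XAF1, a pro-apoptotic gene with 3.54.

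Among the class I genes of antigen presentation 6 of 17 were called higher and 0 lower, with a median of 0.77. By the adjusted p alone 14 were higher and 2 lower, and the 2 became 0 without Untreated replicate 3 or in a fit of the compared groups alone. HLA-F was at 80.0, 58.2 and 51.1 TPM and at 204 and 222 TPM (1.76 ± 0.14, adjusted p = 9.5e-06). TAP1, a chain of the peptide pump of the endoplasmic reticulum, rose from 49.9 ± 5.08 to 149 ± 6.14 TPM (1.57), and NLRC5, the activator of class I transcription, from 72.4 ± 15.7 to 210.3 ± 11.6 TPM (1.54). Classical heavy chains did not reach the fold required. HLA-B had a log2 fold change of 0.60 (364 ± 39.6 and 551 ± 4.75 TPM) and HLA-C of 0.55 (250.4 ± 19.4 and 368 ± 22.4 TPM). Each had both D3 libraries above all Untreated libraries, as did 34.3% of all tested genes. HLA genes share sequence, so their single values are uncertain. Of the inducible proteasome subunits, which make peptides for class I, 2 of 5 rose (PSMB9 with 1.197 and PSMB10 with 1.09, or 0.901 and not called after median-ratio scaling), and the list median was 0.77. The 14 constitutive subunits had 0 calls, 4 lower by the adjusted p alone and a median of -0.20. That median was -0.0725 after quantile normalization, -0.391 after median-ratio scaling and -0.118 without Untreated replicate 3. The 4 became 0 without Untreated replicate 3 or in a fit of the compared groups alone.

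Of the 16 class II genes 7 were higher, 15 were higher by the adjusted p alone, and the median was 0.94. Many of them were already expressed in U87 without IFN-γ. HLA-DQA1 was at 30.4, 36.6 and 34.0 TPM and rose to 233 and 243 TPM (2.79 ± 0.12, adjusted p = 9.01e-08). HLA-DOA, which with HLA-DOB restrains peptide exchange, rose from 22.8, 23.5 and 6.995 TPM to 139.9 and 149 TPM (3.12 ± 0.45, adjusted p = 0.000955, and 0.0613 in a fit of the compared groups alone), and HLA-DOB, with a mean of 0.452 TPM before and 19.5 TPM after, had the largest change of the list, 3.94. CIITA, the master activator of class II transcription, was at 50.8, 47.1 and 32.9 TPM and rose to 155 and 152 TPM (1.82 ± 0.14, adjusted p = 4.9e-06). The invariant chain gene CD74 had 281, 296 and 361 TPM before and 651 and 611 TPM after (1.02 ± 0.12, adjusted p = 0.000202). CD74 sat at the edge of the call: its log2 fold change was 0.944 without Untreated replicate 1, 0.983 without Untreated replicate 2, 0.971 without D3 replicate 2 and 0.829 after median-ratio scaling. The main chain HLA-DRA went from 185, 183 and 219 TPM to 326 and 316 TPM (0.72 ± 0.10, adjusted p = 0.00102) and was not called. HLA-DMB, the peptide editor, was named after its values were seen, and rose from 31.5 ± 3.44 to 94.9 ± 0.686 TPM (1.57). Between HLA-DRA and HLA-DPB1 (chr6:32439878-33089696) 10 of 26 tested genes were higher and 0 lower.

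Chemokines that attract neutrophils rose beside those that attract T cells. Of 20 tested chemokine genes 13 were higher and 0 lower, with a median of 1.99. CXCL5, a ligand of the neutrophil receptor CXCR2, was at 2.68, 2.01 and 1.90 TPM and at 45.02 and 31.0 TPM (3.59 ± 0.21, adjusted p = 8.13e-07). CXCL1, another ligand of CXCR2, was at 4.07, 5.59 and 3.67 TPM and at 48.9 and 36.2 TPM (3.00 ± 0.19, adjusted p = 1.55e-06). CXCL10, which attracts T cells through CXCR3, was listed at 0 in all Untreated libraries and was at 6.59 and 10.44 TPM at D3 (adjusted p = 5.22e-06). After 3 days the CXCR2 ligands thus stood above CXCL10 in TPM. CXCL2, CXCL3 and CXCL8, named after their values were seen, had log2 fold changes of 2.10, 2.22 and 1.61, and CXCL8 reached 309 and 251.1 TPM from 80.3, 94.1 and 97.7 TPM. In the interval that holds these 5 genes (chr4:73740519-74099196) 6 of 6 tested genes were higher. In the interval of CXCL9, CXCL10 and CXCL11 (chr4:76001275-76041415) 2 of 3 were higher, and CXCL9 was at 0.0951 and 0.471 TPM at D3.

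Of 23 cytokine genes 14 rose and 0 fell, with a median of 1.31. IL32, an inflammatory cytokine, was at 4.78, 4.79 and 5.03 TPM and at 80.7 and 70.8 TPM (3.71 ± 0.17, adjusted p = 1.42e-07). TNFSF10, the death ligand TRAIL, was at 0.956, 1.07 and 0.420 TPM and at 16.1 and 19.3 TPM (3.38 ± 0.32, adjusted p = 3.36e-05). IL18BP, a soluble inhibitor of IL-18, rose from 3.93 ± 0.794 to 40.4 ± 6.33 TPM (3.07). Myeloid growth factors were among them. CSF2, or GM-CSF, went from 6.47, 4.81 and 3.32 TPM to 53.8 and 25.7 TPM (2.74 ± 0.33, adjusted p = 0.000227), with the D3 libraries well apart from each other. CSF3 (G-CSF), IL6 and IL15RA, the chain that presents IL-15 to T cells, were named after their values were seen. CSF3 rose from 93.2 ± 13.7 to 333 ± 72.1 TPM (1.82), IL6 from 53.9 ± 8.07 to 213 ± 23.7 TPM (1.97), and IL15RA from 24.1 ± 4.05 to 130.1 ± 18.0 TPM (2.39).

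Of 16 tested checkpoint and tryptophan genes 6 rose, with a median of 0.54. Beside IDO1, TNFRSF14, a ligand of the inhibitory receptor BTLA, was at 15.3, 21.2 and 17.3 TPM and at 101 and 99.6 TPM (2.43 ± 0.13, adjusted p = 4.43e-07). LGALS9, or galectin-9, was at 0, 0 and 0.128 TPM and at 4.53 and 11.5 TPM (3.00 ± 0.35, adjusted p = 0.000201). The co-stimulatory receptor CD40 rose from 38.9 ± 11.1 to 151 ± 0.489 TPM (1.97), and PDCD1LG2 (PD-L2), named after its values were seen, from 25.3 ± 3.07 to 62.8 ± 1.4997 TPM (1.29). CD274, which encodes PD-L1, was at 28.7, 46.9 and 28.1 TPM and at 70.0 and 59.3 TPM. Its log2 fold change was 0.92 ± 0.18 (adjusted p = 0.00613), short of the fold required. Both D3 libraries were above all Untreated ones, as for 34.3% of all tested genes. It was called without Untreated replicate 2 (1.15) and without D3 replicate 3 (1.04).

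Of 15 complement components and regulators 9 were higher and 0 lower, with a median of 1.61. C2, which forms part of the classical convertase, was at 0.641, 1.57 and 0.770 TPM and at 25.1 and 24.0 TPM (3.71 ± 0.21, adjusted p = 8.13e-07). SERPING1, the inhibitor of C1, was at 7.43, 9.02 and 4.53 TPM and at 59.1 and 57.8 TPM (2.94 ± 0.21, adjusted p = 3.18e-06). C3, the central component, rose from 85.4 ± 18.8 to 472 ± 34.9 TPM (2.47) and CFB of the alternative pathway from 11.9 ± 3.03 to 62.0 ± 13.3 TPM (2.30). C4B had 2.83 and C4A 1.98, but the genes are near-identical copies and their split is uncertain. The adjacent C1R and C1S, named after their values were seen, had 1.67 and 1.61 (within chr12:6988259-7109238, where 3 of 3 tested genes were higher).

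Of 20 NF-κB subunits and targets 7 rose, with a median of 0.90. TNFAIP3, the A20 inhibitor of NF-κB, was at 13.04, 12.9 and 11.3 TPM and at 53.5 and 45.04 TPM (1.90 ± 0.11, adjusted p = 8.13e-07). NFKBIZ, a nuclear cofactor, rose from 36.1 ± 7.03 to 134 ± 10.8 TPM (1.88), and SOD2, the mitochondrial superoxide dismutase, to 464 ± 55.1 TPM from 196 ± 9.36 TPM (1.23). Of 8 tested adhesion genes 4 were higher (1 after quantile normalization). ICAM1, the ligand of LFA-1 on lymphocytes, was at 38.6, 48.8 and 35.3 TPM and at 158 and 141 TPM (1.85 ± 0.13, adjusted p = 3.18e-06). The other 3, ICAM2, ICAM4 and VCAM1, had Untreated levels of at most 2.06 TPM and lost the call without 1 library. ICAM2 had an adjusted p of 0.213 without D3 replicate 2, and ICAM4 of 0.108 without D3 replicate 3. VCAM1 was at 1.93 and 2.52 TPM at D3, and its adjusted p was 0.0429 and was 0.0788 without Untreated replicate 2, 0.125 without Untreated replicate 3, 0.129 without D3 replicate 2 and 0.179 without D3 replicate 3. Of 9 tested ligands of natural killer receptors 1 rose, MICB, from 17.6 ± 2.26 to 48.1 ± 0.289 TPM (1.41).

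Of 22 tested genes of cell death 3 were higher, or 1 without Untreated replicate 3, without D3 replicate 2 or after either other scaling, with a median of 0.41. CASP1, the caspase that matures IL-1β, was at 22.3, 17.2 and 15.9 TPM and at 64.6 and 65.1 TPM (1.77 ± 0.14, adjusted p = 5.58e-06). The others were GSDMD and CASP10, both with a log2 fold change of 1.00, at the edge of the call. GSDMD was at 0.974 without Untreated replicate 1, 0.96 without Untreated replicate 3 and 0.945 without D3 replicate 2. CASP10 was at 0.998, 0.901 and 0.903 without Untreated replicate 2, Untreated replicate 3 and D3 replicate 2. Of 17 p53 target genes 2 rose: PMAIP1 with 1.14 and BBC3 with 1.12, both BH3-only death genes, and both under 1 after quantile normalization (0.981 and 0.774) or median-ratio scaling (0.957 and 0.938). The p53 target and CDK inhibitor CDKN1A had 178 ± 12.1 and 176 ± 3.70 TPM. In the unfolded protein and ATF4 list 3 of 18 were higher, or 1 without D3 replicate 2 and 5 without D3 replicate 3. ATF3, a stress-induced factor that also belongs to the AP-1 list, rose from 35.1, 28.1 and 25.1 TPM to 133 and 117 TPM (2.06 ± 0.14, adjusted p = 2.37e-06). In that AP-1 and EGR list 3 of 13 were higher (1 after quantile normalization), with a median of -0.08.

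Of 8 tested metallothioneins, which bind zinc and copper, 2 were higher, and the list median was -0.31. MT1G was at 0, 0 and 2.22 TPM and at 42.7 and 22.6 TPM (4.44 ± 0.53, adjusted p = 0.000219). MT1H was at 0, 0.749 and 0 TPM and at 10.0 and 5.94 TPM (2.86 ± 0.36, adjusted p = 0.000371). The genes are near-identical neighbours, and the other 6 were not called. Of 15 matrix metalloproteases and inhibitors 4 rose, with a median of -0.21, and 5 were higher and 7 lower by the adjusted p alone. The 7 lower were 4 without Untreated replicate 1, 2 without Untreated replicate 3 or either D3 library and 1 in a fit of the compared groups alone. The 4 rises were 2 without Untreated replicate 3, without D3 replicate 2 or after quantile normalization. MMP3, the stromelysin that cleaves matrix proteins and other proteases, was at 79.9, 72.4 and 79.2 TPM and at 282 and 265 TPM (1.81 ± 0.08, adjusted p = 9.1e-08).

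**Figure D3:**
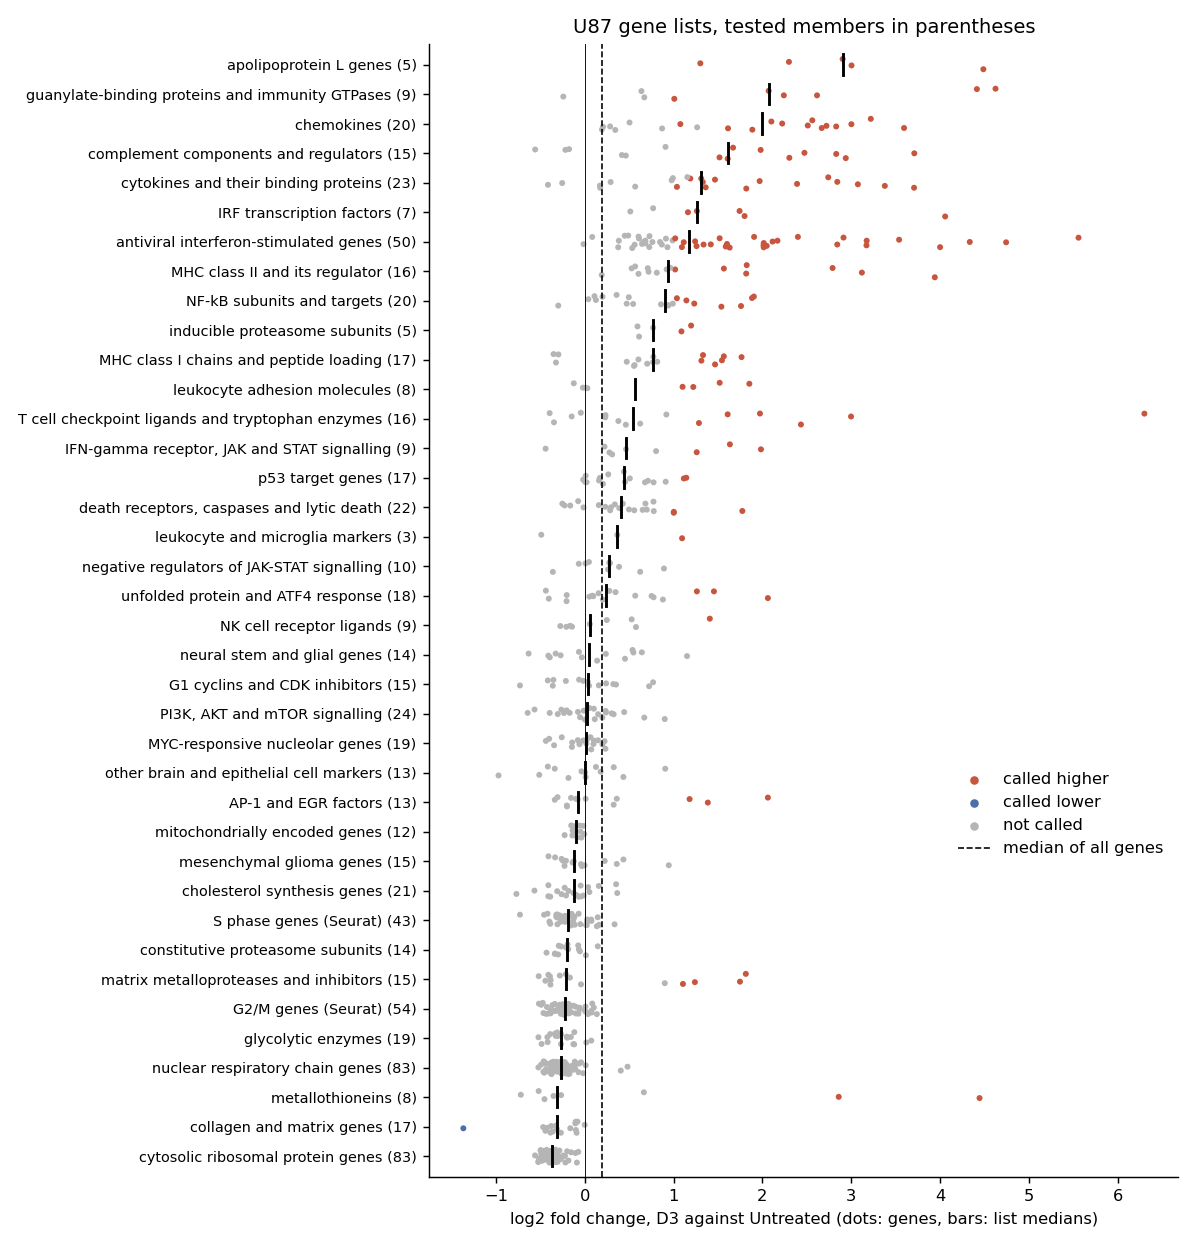
Log2 fold change of D3 against Untreated in U87 for the tested genes of 38 lists, with a dot for each gene, a bar for the list median and a dashed line for the median of all tested genes, 0.20. The apolipoprotein L, guanylate-binding protein and chemokine medians lie at 2.90, 2.07 and 1.99, and those of the cell cycle, glycolytic and ribosomal lists below the dashed line. The median of tested genes averaging above 100 TPM was -0.135.

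The genes that fell included LMO2, HGF and PGF. CCDC178, a coiled-coil protein gene, was at 10.9, 9.38 and 8.68 TPM and at 0.498 and 0.317 TPM (-2.92 ± 0.32, adjusted p = 0.000122). LMO2, a LIM-domain cofactor of transcription known from hematopoietic and endothelial cells, was at 31.1, 40.4 and 36.2 TPM and at 6.45 and 6.95 TPM (-2.25 ± 0.22, adjusted p = 4.27e-05). In both genes every Untreated library exceeded both D3 libraries several times over. Secreted growth factors were among the abundant genes that fell. HGF, the ligand of the MET receptor, was at 135, 151 and 148 TPM and at 59.5 and 46.7 TPM (-1.44 ± 0.11, adjusted p = 6.18e-06). PGF, placental growth factor and a ligand of VEGFR1, was at 87.4, 83.2 and 76.0 TPM and at 18.5 and 25.2 TPM (-1.88 ± 0.16, adjusted p = 1.45e-05). The imprinted gene MEST fell from 77.5 ± 9.13 to 21.1 ± 1.15 TPM, the membrane collagen gene COL13A1 from 124 ± 7.33 to 40.1 ± 3.75 TPM, and the secreted glycoprotein gene SCUBE3 from 14.99 ± 2.41 to 3.11 ± 0.814 TPM.

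TNFRSF10D, a decoy receptor for TRAIL, fell from 111, 109 and 118 TPM to 47.2 and 56.5 TPM (-1.11 ± 0.12, adjusted p = 0.000111), and had a log2 fold change of -0.983 without D3 replicate 2. RGS4, an inhibitor of G-protein signalling, was at 75.8, 74.3 and 68.8 TPM and at 11.1 and 19.5 TPM (-2.23 ± 0.46, adjusted p = 0.00769). PLXNA4, a semaphorin co-receptor, was at 25.2, 21.7 and 17.1 TPM and at 2.49 and 5.93 TPM (-2.17 ± 0.37, adjusted p = 0.00286). For both, D3 replicate 2 was the lower library, and without it the adjusted p was 0.104 for RGS4 and 0.0531 for PLXNA4. The matricellular protein gene THBS1 was the 1 gene called lower in a list of 17 collagen and matrix genes and was at 59.4, 53.1 and 62.5 TPM and at 24.5 and 19.6 TPM (-1.37 ± 0.27, adjusted p = 0.00581). Its adjusted p was 0.058 without D3 replicate 3, and the list had a median of -0.31. The list does not hold the collagen genes COL13A1 and COL22A1, which were both called lower, COL22A1 with an adjusted p of 0.0769 without D3 replicate 3 and 0.0748 in a fit of the compared groups alone.

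Lists of growth and metabolism held no called genes. For members at a mean above 100 TPM, the median of all tested genes at that level was -0.135. For the 43 S phase genes the median was -0.19 (-0.0949 without D3 replicate 2 and -0.38 after median-ratio scaling, with 1 lower by the adjusted p alone and 11 after that scaling), for the 54 G2/M genes -0.22 (with 11 lower and 0 higher by the adjusted p alone, 4 lower without D3 replicate 2, 6 without D3 replicate 3 and 26 after median-ratio scaling), for 15 G1 cyclins and CDK inhibitors 0.03 and for 19 MYC-responsive nucleolar genes 0.02. After median-ratio scaling the medians of the G1 and MYC-responsive lists were -0.154 and -0.169. The 24 genes of PI3K, AKT and mTOR signalling had 0 calls by limma, 2 higher and 1 lower by the adjusted p alone, and a median of 0.03. The adjusted p alone gave 0 in either direction without D3 replicate 2, 1 gene of this list was called higher without D3 replicate 3 and 1 lower after quantile normalization, and the median was -0.154 after median-ratio scaling. MYC had 108 ± 7.34 and 107 ± 5.51 TPM. The 19 glycolytic enzymes had a median of -0.27 with 6 lower by the adjusted p alone, a count that was 0 without D3 replicate 2, 3 without Untreated replicate 3 and 1 after quantile normalization. The 83 nuclear genes of the respiratory chain had a median of -0.27 with 26 lower, and 5 without D3 replicate 2, 10 without D3 replicate 3, 13 without Untreated replicate 3 and 13 after quantile normalization. The 83 tested ribosomal protein genes had a median of -0.37, and 67 of them were lower by the adjusted p alone. That count was 10 with quantile normalization, where their median was -0.14, 41 without Untreated replicate 3, 21 without D3 replicate 2, 11 without D3 replicate 3, 2 in a fit of the compared groups alone, and 71 after median-ratio scaling, where it was -0.56. The 15 mesenchymal glioma genes had a median of -0.12, which was 0.14 with quantile normalization, and 14 neural stem and glial genes had a median of 0.05 (-0.17 after quantile normalization and -0.133 after median-ratio scaling).

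The second line, U251, gives values beside those of U87 for the same 3 days. The tables of the lines were normalized separately, so each line was tested within its own table and the lines were not tested against each other. In U251, 2301 of 23667 tested genes were higher at D3 (9.72%) and 1077 lower (4.55%). Over the 20473 genes tested in both lines, 1155 were higher in U87 and 1945 in U251, and the 385 in both were 33.3% of the former and 19.8% of the latter. Among genes lower at D3, 61 in U87 and 848 in U251, 11 were shared, which is 18.0% and 1.3%. Of the 1155 genes higher in U87, 46 were called lower in U251, and of the 61 lower in U87, 2 were called higher there.

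Several class II genes had unlike starting levels in the lines. HLA-DRA was listed at 0 in the Untreated libraries of U251 and was at 244 ± 46.4 TPM at D3 (n = 3), beside 195 ± 20.03 and 321 ± 7.29 TPM in U87. CD74 was at 1.62 ± 1.09 and 573 ± 124 TPM in U251, beside 313 ± 42.8 and 631 ± 28.6 TPM. CIITA was at 1.88 ± 0.727 and 130.5 ± 5.85 TPM in U251, beside 43.6 ± 9.46 and 154 ± 1.71 TPM. The Untreated means of these 3 genes were much lower in U251 than in U87, and their D3 means were lower in U251 by less. Other members did not follow this. HLA-DOB had low means in both Untreated lines, 0.452 TPM in U87 and 0.445 TPM in U251, and HLA-DQA1 stood at 238 ± 7.17 TPM at D3 in U87 and at 7.33 ± 1.601 TPM in U251. The lines were high in different chemokines. CXCL10 reached 239 ± 55.9 TPM in U251 and 8.51 ± 2.72 TPM in U87, whereas CXCL1 was listed at 0 in all libraries of U251 at both times and reached 42.6 ± 9.002 TPM in U87. CXCL8 was at 31.6 ± 3.21 and 53.6 ± 7.06 TPM in U251, beside 90.7 ± 9.201 and 280.0 ± 40.8 TPM in U87.

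**Figure D4:**
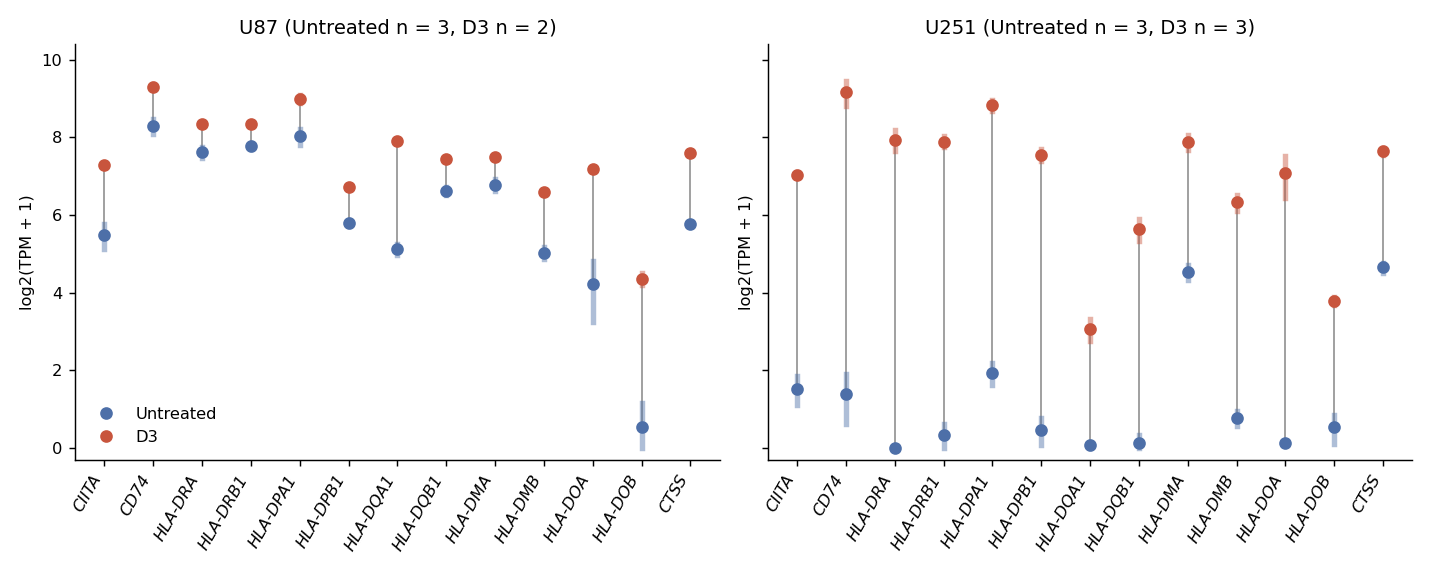
Levels of 13 class II genes in U87 (left) and U251 (right), Untreated and after 3 days, on an axis of log2(TPM + 1), with a point for the mean TPM and a thick bar for the mean plus and minus the SD. HLA-DRA lies at 195 TPM in Untreated U87 and at 0 in Untreated U251, and at 321 and 244 TPM after 3 days.

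The later libraries of U87 show how the 3-day levels compared with those after longer exposure. These comparisons use the same D3 libraries as the comparison with Untreated, so no overlap between them is given. At D28, 3 of 22918 genes (0.0131%) were higher than at D3 and 16 (0.0698%) lower. Those lower include CXCL5, at 10.8 ± 2.04 TPM (n = 3) after 28 days against 38.0 ± 9.90 TPM after 3 (log2 difference -1.71, adjusted p = 0.0113), and MT1H, at 0.160 ± 0.277 against 7.97 ± 2.87 TPM (adjusted p = 0.0113). One of those higher was CX3CL1, the membrane-bound chemokine fractalkine, at 9.13 ± 1.74 against 1.17 ± 0.655 TPM (log2 difference 2.24, adjusted p = 0.0119). Without D3 replicate 3 these counts were 10 and 38, and without D28 replicate 3 they were 3 and 8. These 3 genes were chosen after their values were seen.

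The libraries labelled D14 stood apart, with 132 genes higher (0.576%) and 470 lower (2.05%) than at D3. Without D3 replicate 2 these counts were 61 and 278, without D14 replicate 2 they were 69 and 282, and without D14 replicate 3 they were 73 and 308. IDO1 was listed at 0 in both of them, beside 83.6 ± 3.22 TPM at D3 and 111 ± 17.8 TPM at D28. BST2 was at 7.71 ± 0.547 TPM, beside 139 ± 3.15 and 149.7 ± 16.8 TPM. HLA-DQA1 was at 46.9 ± 5.99 TPM, beside 238 ± 7.17 and 271 ± 41.2 TPM. In these genes the libraries labelled D14 lay far below both D3 and D28, although BST2 and HLA-DQA1 were above their Untreated means of 1.98 and 33.7 TPM. HGF, which fell at D3, was at 128 ± 1.41 TPM at D14 and 59.4 ± 2.39 TPM at D28, beside 53.1 ± 9.08 TPM at D3. LMO2 did not show this order, with 8.33 ± 0.112 TPM at D14 and 4.66 ± 1.62 TPM at D28, beside 6.70 ± 0.358 TPM at D3. With limma fitted to the libraries of the compared pair of groups alone, 0 genes were called for D14 against D3 and 0 for D28 against D3, with 4173 and 1725 genes at an unadjusted p under 0.05. In U251, IDO1 was at 36.0 to 52.6 TPM at D14, beside 318 to 380 TPM at D3 and 389 to 411 TPM at D28. HLA-DQA1 there was at 0.0470 to 0.258 TPM, beside 5.69 to 8.89 and 30.4 to 38.6 TPM. BST2 did not follow this in U251, with 176 to 194 TPM at D14, beside 144 to 172 and 181 to 211 TPM.

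**Figure D5:**
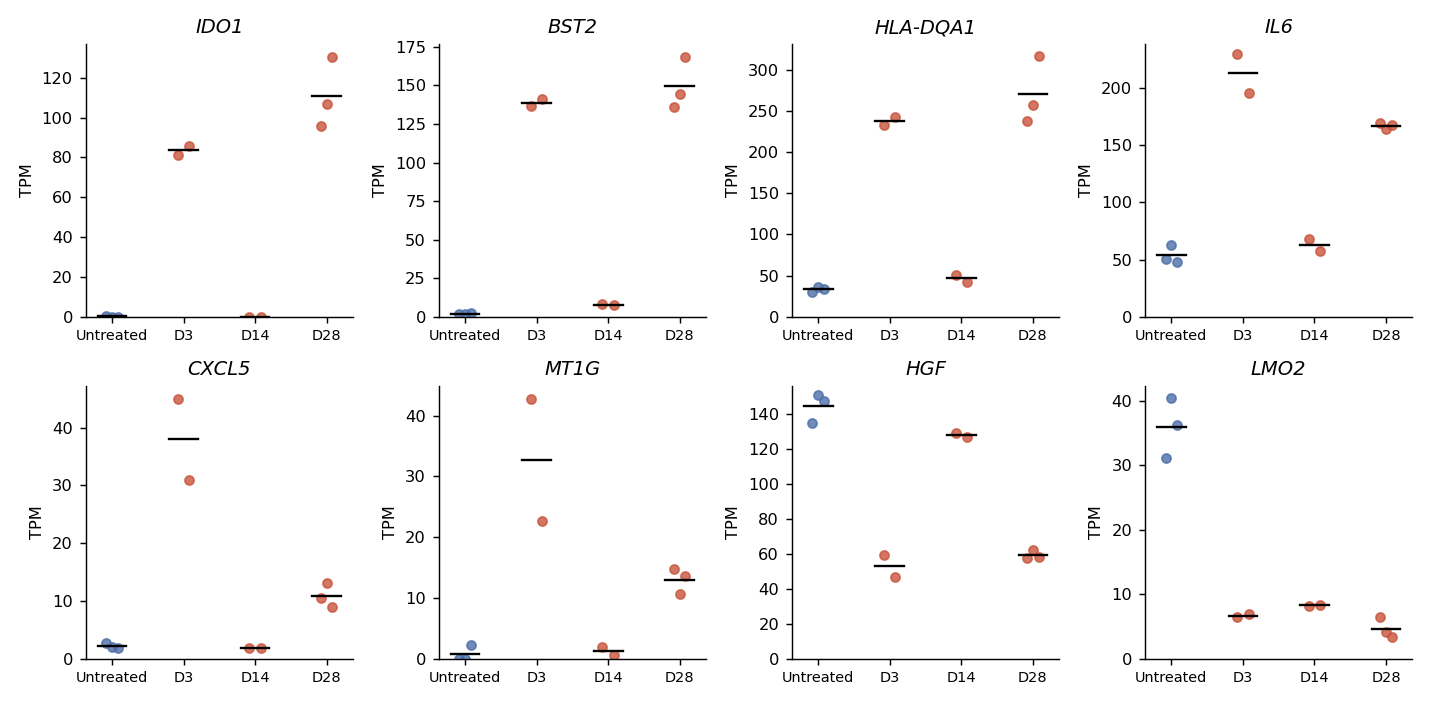
Levels in TPM of IDO1, BST2, HLA-DQA1, IL6, CXCL5, MT1G, HGF and LMO2 in the U87 libraries labelled Untreated, D3, D14 and D28, with a dot for each library and a bar for the group mean. IDO1 is at 83.6 TPM at D3, at 0 in both libraries labelled D14 and at 111 TPM at D28, while CXCL5 falls from 38.0 TPM at D3 to 10.8 TPM at D28.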

How the data were processed

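RNA of U87 and U251 cells was sequenced as paired TruSeq libraries. Per the labels and the paper, Trim Galore, STAR (on GRCh38) and featureCounts were used. The authors deposited TPM values, with the lines in separate tables, and how TPM was computed is not given in the sources used here. In the U87 file 2 columns carry the same name and were not used, which left 13 libraries.

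Genes averaging 0.5 TPM or more in these libraries were fitted on log2(TPM + 1) with limma 3.58.1 (lmFit, then eBayes with its trend option; R 4.3.3). The 5 U87 groups (Untreated, D3, D14, D28 and D28WO, 13 libraries) shared 1 fit and hence 1 estimate of the spread, and U251 was fitted alike in its own table. Unless another fit is named beside it, an adjusted p is from these fits. All were adjusted by Benjamini-Hochberg, and calls needed a value under 0.05 with a log2 fold change beyond 1 in either direction. The members and the 41 gene lists were chosen with earlier results of these data known. The cell cycle lists came from Seurat 5.3.0. Lists overlap and are described by counts and medians. Named genes were up to 5 called members of a list with the largest rise or fall, the members that name a list, the 12 largest rises and falls (over all and over protein-coding genes), and the 8 largest gains and losses in mean TPM. The last 2 sets were taken among called genes whose groups did not overlap, and genes named outside this rule are marked. Some genes that fall under it are not reported here. Coordinates are from GENCODE release 44. Promoters are from RefSeq on GRCh38.p14, with an entry for 11573 tested protein-coding genes and none for IDO1, SAA1, SAA2, GBP5, APOL4 and MT1G.

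Tested on simulated data made from the U87 libraries, the procedure found 83.0% of 200 genes shifted by a log2 fold change of 1.5 and made 5 false calls. Shifts of 2 and 3 gave 90% and 91.5%, with 9 and 12 false calls. The shifted genes had an Untreated mean over 1.5 on the log2(TPM + 1) scale, and as many were raised as lowered. These figures therefore do not cover genes near 0 or data in which most calls are rises. Alternatives varied the pseudocount (0.1), the filter (none, or 1 TPM), the scaling (quantile, or median-ratio size factors), the groups fitted, a replicate block, array weights and the libraries, each left out in turn.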

Additional observations from a re-analysis of the deposited data

Results flagged for a closer look

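In U87 the immediate-early genes EGR2 and FOSB were called higher at D3, while in every U251 library at D3 they lay below every Untreated U251 library. EGR2 had a log2 fold change of 1.18 in U87 and -3.64 in U251 (38.3 ± 7.47 to 2.25 ± 1.10 TPM), and FOSB 1.39 in U87 and -3.27 in U251 (127 ± 16.2 to 12.4 ± 2.30 TPM). The U87 call of FOSB was lost without Untreated replicate 1 or 3 or either D3 library (adjusted p from 0.0779 to 0.181). EGR2 fell short of the fold required in U87 after quantile normalization (0.947) and median-ratio scaling (0.996). NFKBIZ, a cofactor of NF-κB, had 1.88 in U87 and -0.649 in U251, and IL6, which was named after its values were seen, 1.97 and -0.788. LMO2 had the opposite order, with -2.25 in U87 and 1.39 in U251. These genes were flagged because all libraries of one line moved one way and all libraries of the other the opposite way. The difference between the lines was not tested. Over the 20473 genes tested in both lines, 46 were called higher in U87 and lower in U251, and 2 the reverse. NFKBIZ and IL6 were under the fold required in U251. Of the 13 AP-1 and EGR genes, which include EGR2 and FOSB, 8 were called lower in U251.

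In U87, 470 genes were lower and 132 higher in the libraries labelled D14 than at D3, whereas 16 were lower and 3 higher at D28 than at D3. Each is a direct test against the same D3 libraries. The cause was not tested. Groups of 2 or 3 libraries are too small for a test of single outlying samples.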

How the results depend on the processing

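TPM keeps no depth, D3 rests on 2 libraries, and values near 0 cannot be given a limit. For D3 against Untreated, quantile normalization gave 543 higher and 279 lower genes, median-ratio size factors 998 and 164, and a fit with only these groups 585 and 41, against 1340 and 88. Leaving out 1 library gave 656 to 1334 higher and 49 to 99 lower, the lowest of both without D3 replicate 2. The median log2 fold change of all genes was 0.0954 without a filter, -0.0231 with quantile values and 0.0465 after median-ratio scaling. For D14 against D3, quantile normalization gave 201 higher and a fit with only these groups 0 higher and 0 lower (4173 at an unadjusted p under 0.05), and leaving out 1 library gave 61 to 94 higher and 278 to 359 lower. For D28 against D3, higher genes numbered 6 with the pseudocount of 0.1, 7 without a filter, 10 with quantile values, 5 after median-ratio scaling and 3 to 10 without 1 library. Lower genes numbered 8 to 38 without 1 library, and 0 genes were called in either direction with only these groups (1725 at an unadjusted p under 0.05). In U251 quantile normalization gave 1474 higher genes. Same-numbered libraries of the groups did not deviate together (correlations 0.030 and 0.021), and with the replicate block 1310 genes were higher and 85 lower, of which 1166 and 73 were called without it. CDKN1A and MYC, with log2 fold changes near 0, changed sign. CDKN1A was at 0.096 after quantile normalization and at -0.0646 to 0.032 without 1 library and MYC at -0.0688 to 0.0376 without 1 library. Of 140 named genes, 17 lost the call with quantile values, 12 after median-ratio scaling, 21 with only these groups in the fit, 9 without a filter, 5 with the block, 3 with array weights, 1 with the pseudocount of 0.1 and 11 to 27 without 1 library. The causes were not tested.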

Other observations

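The share of genes called differed between classes of level in U87, and was highest in the middle class. The level was averaged over exposed libraries too, so a gene's own rise can move it up a class. The log2(TPM + 1) scale also makes the fold required hard to reach near 0, so the shares partly reflect these choices. Of 3778 genes with a mean of 5 to 20 TPM over the U87 libraries, 12.7% were called higher at D3, against 2.75% of 3341 genes at 0.5 to 1 TPM, 7.99% of 5508 genes at 1 to 5 TPM, 3.91% of 7168 genes at 20 to 100 TPM and 1.6% of 3123 genes above that. The median log2 fold change of the last class was -0.135, below the 0.20 over all tested genes.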
